A study of Marchantia polymorpha and Arabidopsis thaliana with 54 samples.

Results

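Seedlings of Arabidopsis thaliana that carried knockouts of 3 heat shock factor genes were compared with wild-type seedlings after 1 h at 37 °C, over all genes of the count table. The comparison takes 6 of the 54 samples of the series, all from batch 1: 3 libraries labelled eTK after heat and 3 Col-0 libraries after heat. The eTK label stands for the triple knockout hsfa1a/hsfa1b/hsfa1d, and Col-0 is the wild-type accession. Another 12 libraries serve as the background without heat: 6 labelled eTK and 6 Col-0, each group split evenly over batches 1 and 2. All seedlings were 7 days old, had grown under continuous light at 22 °C on MS agar with sucrose, and were harvested whole, so every level is an average over all tissues. HSFA1E, the remaining gene of the HSFA1 class, is not named in the genotype. The remaining 36 samples come from Marchantia polymorpha and were not analysed here.

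In plants, heat shock factors bind short repeats of the trinucleotide GAA and its complement, the heat shock elements, in the promoters of genes that respond to heat. The HSFA1 proteins are present before heat, are held inactive by HSP70 and HSP90 chaperones, and are released when unfolded proteins occupy those chaperones. They switch on chaperone genes directly and a further layer of regulators, among them HSFA2, DREB2A and MBF1C, which extend the response. The endoplasmic reticulum has its own response to unfolded proteins, driven by membrane-bound bZIP factors that bind other promoter elements. The question asked of these data was how far seedlings labelled eTK stood from Col-0 in the levels reached after the same heat.

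Levels are CPM, counts scaled to a common library size, on the scale set by the trimmed-mean factors of edgeR (TMM), and differences are log2 values of eTK over Col-0 with their SE. A gene was called where the Benjamini-Hochberg adjusted p of edgeR's quasi-likelihood test, taken over 22696 genes tested, was below 0.05. Depth was 59991169, 61808199 and 64844153 counts in the heat libraries labelled eTK, against 72670045, 58370609 and 59011969 counts in Col-0. No label says that replicates were separate cultures, so the p-values cover only how these samples vary, and that variation may be technical.

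The transcripts of the 3 targeted genes were examined first. HSFA1B (AT5G16820, TAIR10.1 chr5:5530195-5532889) had 0.89, 1.16 and 0.816 CPM in heat libraries labelled eTK, against 12.8, 13.4 and 12.4 CPM in Col-0 (log2 -3.75 ± 0.2, adjusted p = 2.59e-11 by edgeR). HSFA1D (AT1G32330, chr1:11656964-11660471) had 10.9, 8.17 and 9.28 CPM in heat libraries labelled eTK, against 34.6, 37.4 and 34.4 CPM in Col-0 (log2 -1.91 ± 0.11, adjusted p = 6.53e-11). Both were lower in every library labelled eTK, with no overlap. HSFA1A (AT4G17750, chr4:9869818-9871646) had 2.8, 1.65 and 1.96 CPM in heat libraries labelled eTK, against 2.61, 2.36 and 3.11 CPM in Col-0. These groups overlapped and the gene was not called (log2 -0.33 ± 0.19, adjusted p = 0.166), although without the first eTK heat library it was (log2 -0.56, adjusted p = 0.0246). In control HSFA1A averaged 12.1 CPM in libraries labelled eTK and 6.24 CPM in Col-0 (log2 0.96, adjusted p = 9.1e-06). A transcript level does not show whether a gene makes a working protein, and for HSFA1A it does not separate the lines in the direction of the label; the libraries are therefore called by their label throughout. HSFA1E, whose product acts in the same class, was lower after heat in libraries labelled eTK (9.97, 9.08 and 9.46 CPM, against 13.1, 18.4 and 16.3 CPM in Col-0; log2 -0.75 ± 0.18, adjusted p = 0.00256), but scaling by library size alone ended this call (log2 -0.11).

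Heat shock transcripts filled a large part of the Col-0 heat libraries and almost none of the libraries labelled eTK. Small heat shock proteins, which hold unfolding proteins in a soluble state, took 0.0103, 0.00939 and 0.00857% of all counts in heat libraries labelled eTK, against 6.4, 6.88 and 7.03% in Col-0. In control the same 19 genes averaged 0.0088% in libraries labelled eTK and 0.0125% in Col-0. The HSP70, HSP90 and HSP100 families, which refold and disaggregate proteins with ATP, took 0.327, 0.375 and 0.409% in heat libraries labelled eTK, against 10.6, 9.48 and 11% in Col-0. Their control means were 0.325% in libraries labelled eTK and 0.463% in Col-0. In both classes the shares in libraries labelled eTK after heat lay near these control means, far below every Col-0 heat library. The control means pool both batches, whereas all heat libraries are of batch 1. The batch 1 controls labelled eTK held 0.00629, 0.00678 and 0.00702% for small heat shock proteins. For the HSP70, HSP90 and HSP100 families they held 0.285, 0.298 and 0.31%. In both classes each heat library labelled eTK lay above these batch 1 controls. Co-chaperones, which load and steer HSP70 and HSP90, averaged 0.106 ± 0.00436% in libraries labelled eTK and 2.82 ± 0.229% in Col-0 after heat (SD, n = 3 each; two-sided exact permutation test). The exact permutation p was 0.1 for each of these 3 classes, the smallest value that 3 libraries against 3 allow.

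**Figure D1:**
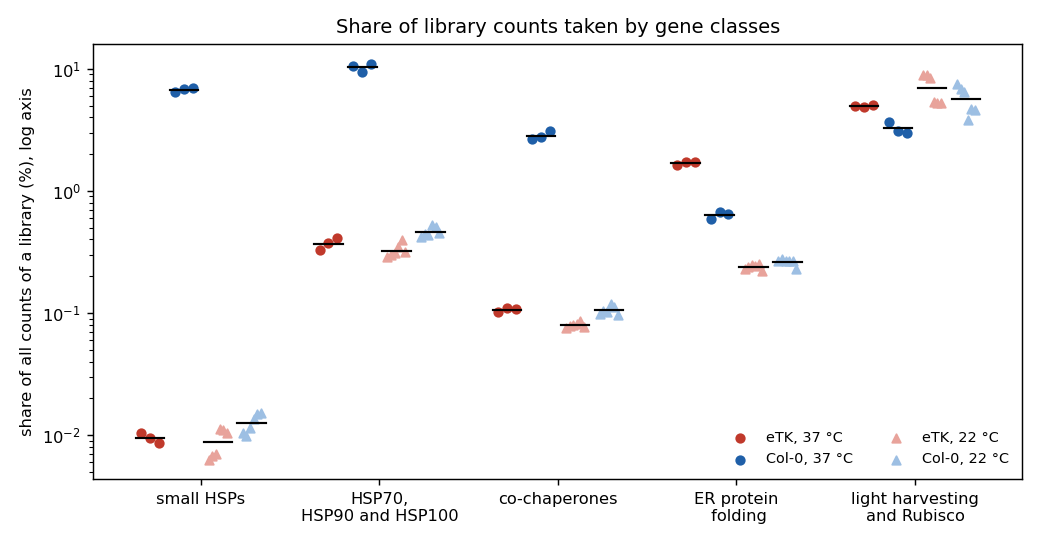
Share of all counts of a library (%, log axis) taken by 5 gene classes, with a point per library, circles for 37 °C, triangles for 22 °C, and a bar at each group mean. After heat the small heat shock proteins averaged 0.00942% in libraries labelled eTK and 6.77% in Col-0, while the ER protein folding genes averaged 1.69% in libraries labelled eTK and 0.639% in Col-0.

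This shift in composition bears on every other level. The 20 most abundant genes of a library took 8.75 ± 0.072% of its counts in heat libraries labelled eTK and 16.1 ± 0.857% in Col-0 (SD, n = 3 each). The TMM factors, which correct for such a shift, averaged 1.02 in heat libraries labelled eTK and 0.655 in Col-0 heat libraries. Shares of all counts are given without these factors. With the TMM factors the median difference over all genes tested was 0.01 on the log2 scale. It was 0.64 when counts were scaled by library size alone and 0.3 when they were scaled by the counts outside the heat shock lists. Scaling by 10 reference genes gave 0.26. A small difference of either sign is therefore relative to the bulk of genes, and where another scaling turns the balance of a group, its counts are given beside it.

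Under TMM scaling 10520 genes, 46.4% of those tested, were called between the heat libraries. Of these, 5285 were higher in libraries labelled eTK (23.3% of genes tested) and 5235 were lower (23.1%). The counts of each gene list below are to be read against these shares. At least a 2-fold difference was found for 2189 genes higher in libraries labelled eTK (9.64%) and 1864 lower (8.21%). The extremes lay below zero: 5 genes were higher and 58 genes lower in libraries labelled eTK by at least 1024-fold. For 11607 genes (51.1%) the 3 libraries labelled eTK and the 3 Col-0 libraries did not overlap. By library size alone 15271 genes were called higher and 1668 lower.

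The lines also differed without heat, where 6171 of the 22696 genes tested (27.2%) were called, 3049 higher and 3122 lower in libraries labelled eTK. The control comparison uses other libraries than the heat comparison. Of the 5285 genes higher after heat in libraries labelled eTK, 1781 (33.7%) were also called higher in control, 221 (4.18%) were called lower there, and 3283 (62.1%) were not called there. Of the 5235 genes lower after heat, 1870 (35.7%) were also called lower in control, 180 (3.44%) were called higher and 3185 (60.8%) were not called. The difference between the heat and control differences (the interaction) was tested itself and called for 5707 genes (25.1%), 2848 higher and 2859 lower. These included 2507 of the genes higher after heat and 2596 of those lower. The model takes the control difference between the lines as equal in both batches, while all heat libraries are of batch 1. With batch 1 alone 5108 genes were called in control and 4445 in the interaction. Of 506 genes lower by at least 8-fold, 350 (69.2%) were lower than the control difference by that test, and of 371 genes higher by at least 8-fold, 148 (39.9%) were higher than it.

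**Figure D2:**
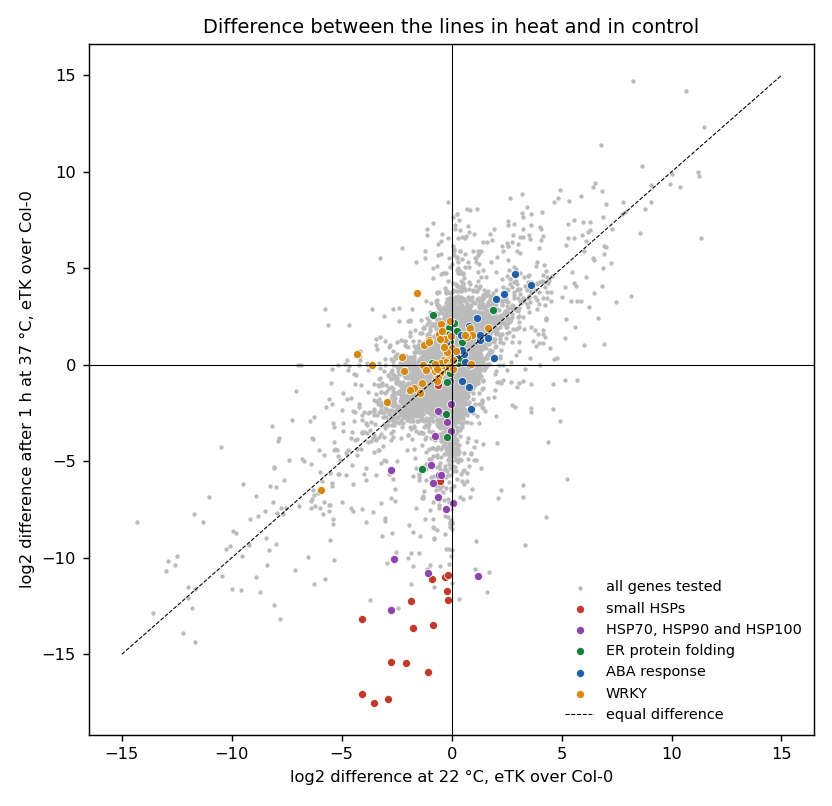
Log2 difference of eTK over Col-0 for each gene tested, at 22 °C on the x axis and after 1 h at 37 °C on the y axis, with members of 5 gene lists coloured and the dashed line marking equal differences. Small heat shock proteins and the HSP70, HSP90 and HSP100 families reach far below the line (list medians -12.22 and -5.45 after heat), most WRKY genes called in control lie left of zero, and most ABA response genes lie to the right of zero and above it.

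Cytosolic and organelle small heat shock proteins showed the widest gap. All 19 members were tested, 17 were lower in heat libraries labelled eTK, none was higher, and the list median was -12.22, against 0.01 over all genes. By library size alone 17 were lower and 1 higher. For every list described here as having none called after heat in a direction, none reached an unadjusted p below 0.05 there, and DESeq2 called none. HSP17.6C-CI, a cytosolic class I member, had 0.198, 0.222 and 0.212 CPM in libraries labelled eTK, against 9549, 8610 and 9340 CPM in Col-0 (adjusted p = 5.38e-18 by edgeR), or 40 counts in all against 1144428, a ratio of Col-0 over eTK of 43673 with a counting interval of 32072 to 61132. HSP17.8-CI, of the same class, had 2.17, 2.34 and 2.15 CPM in libraries labelled eTK, against 10377, 10254 and 11149 CPM in Col-0 (log2 -12.22 ± 0.22). The libraries of a line lay close together in both genes, and the lines stood 3 or more orders of magnitude apart. HSP22, which resides in the endoplasmic reticulum, was nearly undetected in libraries labelled eTK, with 6 counts over 3 libraries, against 780919 counts in Col-0. Scaled to TMM library size, its level was 198675-fold higher in Col-0, with a counting interval of 91278 to 541377. HSP23.6, a mitochondrial form, had 10 counts in libraries labelled eTK and 1114139 in Col-0 (log2 -17.33 ± 0.65), and HSP21, the plastid form, had 8 and 337172 (log2 -15.91 ± 0.46).

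Not every member behaved this way. HSP18.5 kept 50.7, 41.4 and 33.8 CPM in libraries labelled eTK, against 2113, 2960 and 3074 CPM in Col-0 (log2 -6.02 ± 0.2). HSP15.4-CI averaged 25.2 CPM in libraries labelled eTK and 52.9 CPM in Col-0 (log2 -1.07 ± 0.18, adjusted p = 0.000126). These values are far closer than those of the other called members. HSP21.7 (7.93 CPM in libraries labelled eTK, 6.76 CPM in Col-0) and HSP14.2 (1.07 and 0.872 CPM in the same order) were not called. Per kilobase of exon the most abundant small heat shock proteins in Col-0 after heat were HSP17.8-CI (12347 CPM per kb) and HSP17.4-CI (11117). In libraries labelled eTK they were HSP18.5 (37.9 CPM per kb) and HSP15.4-CI (24.5), so the order of levels within the family differed between the lines as well. In control 12 of the 19 genes were already lower in libraries labelled eTK, with a list median of -0.9, and for 16 the interaction was called lower.

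Of the 21 HSP70, HSP90 and HSP100 genes, 20 were lower in heat libraries labelled eTK and none was higher (median -5.45). HSP101 (AT1G74310, chr1:27936508-27940369), the cytosolic disaggregase required for acquired thermotolerance, had 12.9, 13.5 and 15.5 CPM in libraries labelled eTK, against 25088, 21600 and 27387 CPM in Col-0 (log2 -10.79 ± 0.22, adjusted p = 2.17e-17). HSP90.1 (AT5G52640, chr5:21352557-21355147), the heat-inducible cytosolic HSP90, had 3.59, 3.75 and 2.98 CPM in libraries labelled eTK, against 22997, 20064 and 24845 CPM in Col-0 (log2 -12.68 ± 0.37, adjusted p = 2.29e-15). The lines did not overlap in either gene, and each Col-0 value was more than 1024-fold the value of any library labelled eTK. HSP70-4, an inducible cytosolic HSP70, had 15.3, 17.2 and 21 CPM in libraries labelled eTK, against 20118, 16573 and 20728 CPM in Col-0 (log2 -10.07 ± 0.51). HSP70-5 was the single member called higher in control in libraries labelled eTK (12.5 CPM, against 5.43 CPM in Col-0; log2 1.2). After heat it had 8.93, 7.88 and 9.93 CPM in libraries labelled eTK, against 19635, 14790 and 18243 CPM in Col-0 (log2 -10.94 ± 0.18).

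Members expressed in every condition differed less. HSC70-1, the main constitutive cytosolic HSP70, had 1618, 1784 and 1900 CPM in libraries labelled eTK, against 10429, 9121 and 10235 CPM in Col-0 (log2 -2.49 ± 0.1, adjusted p = 4.79e-13). In libraries labelled eTK it was the most abundant member by far per length, at 692 CPM per kb. In Col-0 HSC70-1 stood at 3886 CPM per kb, below HSP90.1 (10763), HSP70-4 (7595) and HSP101 (7344). Organelle disaggregases followed the cytosolic one: CLPB3 of plastids averaged 54.2 CPM in libraries labelled eTK and 7759 CPM in Col-0 (log2 -7.16), and CLPB4 of mitochondria 8.15 and 1427 CPM in the same order (log2 -7.45). The 2 mitochondrial HSP70 genes parted. MTHSC70-2 averaged 68.8 CPM in libraries labelled eTK and 8038 CPM in Col-0 (log2 -6.87 ± 0.17), while MTHSC70-1 averaged 127 and 155 CPM in the same order and was not called (log2 -0.28, adjusted p = 0.204). The HSC70 copies, and HSP90.2 with HSP90.3 and HSP90.4, are near-identical, so how their reads were shared is uncertain; HSP90.2 (250 CPM in libraries labelled eTK, 17253 CPM in Col-0) and HSC70-3 (253 and 13228 CPM) were both lower.

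**Figure D3:**
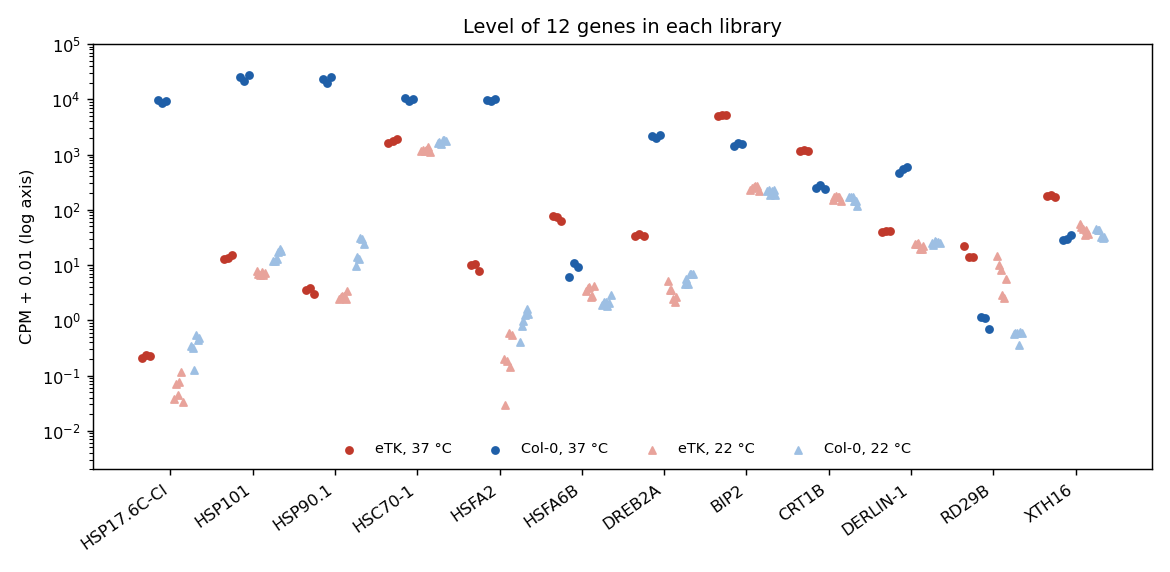
Level of 12 genes in each library (CPM + 0.01 on a log axis), circles for 37 °C and triangles for 22 °C, with libraries labelled eTK left of Col-0 at each temperature. HSP17.6C-CI, HSP101, HSP90.1, HSFA2 and DREB2A are lower in libraries labelled eTK after heat, BIP2, CRT1B, HSFA6B, RD29B and XTH16 are higher, and RD29B is also higher in control (7.32 CPM, against 0.536 CPM in Col-0).

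Of 15 co-chaperones, 14 were lower in heat libraries labelled eTK and none was higher (median -3.8), against 11 lower and 2 higher by library size alone and 1 higher without the first Col-0 heat library. BAG6, a BAG-domain protein of HSP70, had 3.66, 4.11 and 4.34 CPM in libraries labelled eTK, against 10070, 8940 and 11132 CPM in Col-0 (log2 -11.28 ± 0.18, adjusted p = 8.84e-19). In control its means were alike, at 11.1 CPM in libraries labelled eTK and 10.6 CPM in Col-0. Its heat level in libraries labelled eTK thus lay below both control means. ROF2, an FKBP-type partner of HSP90, averaged 7.02 CPM in libraries labelled eTK and 9305 CPM in Col-0 (log2 -10.37). The adaptor HOP3 and the exchange factor FES1A were lower by 9.05 and 8.99 on the log2 scale, whereas HOP1 was not called (75.5 and 67 CPM in the same order, log2 0.17). The 11 chaperonins, barrel-shaped folding machines of plastids and mitochondria, had 9 members lower, none higher, and a median of -1.26. CPN60B2 of plastids was lower by 4.87 and HSP60 of mitochondria by 3.72 on the log2 scale, and by library size alone the counts were 2 higher and 6 lower.

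**Figure D4:**
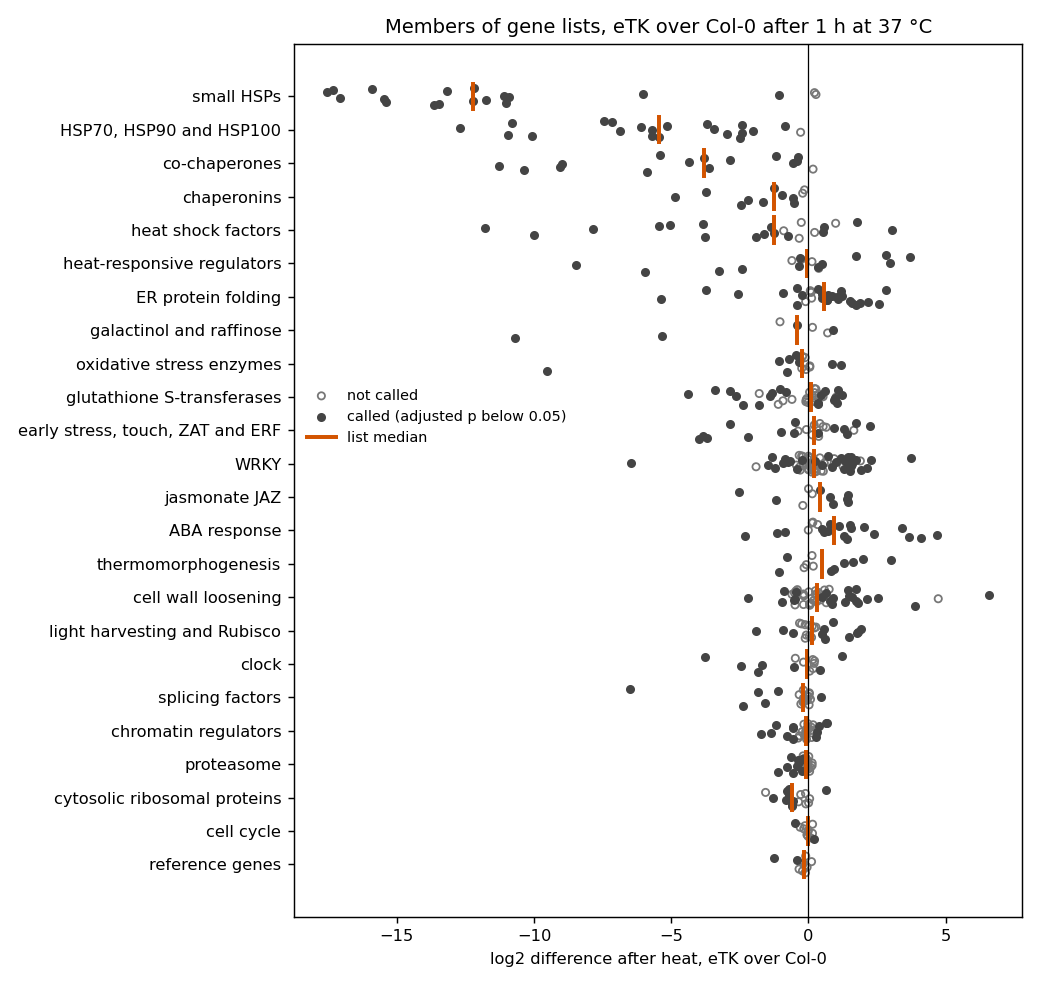
Log2 difference after heat, eTK over Col-0, of the tested members of 24 gene lists, filled where called, open where not, with an orange bar at each list median. The medians run to -12.22 for small heat shock proteins and up to 0.95 for ABA response genes.

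Promoters were searched on both strands for the perfect 3-unit heat shock element, which reads GAA, TTC, GAA with any 2 bases between units (TTC, GAA, TTC on the other strand), in the 250 bases upstream of the annotated transcript start. The sequences are from RefSeq TAIR10.1, read along the strand of the gene, with 12 bases on each side; the build behind the counts is not given in the sources used here. The sequences shown precede named genes whose promoter holds the element, each lower in heat libraries labelled eTK. Genes with larger differences, such as HSP22 and HSP23.6, had no match in this window and are not shown. Capitals mark the element.
HSP17.6C-CI (chr1:19980234-19980270, plus strand): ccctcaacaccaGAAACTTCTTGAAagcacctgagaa
HSP17.4-CI (chr3:16984861-16984897, minus strand): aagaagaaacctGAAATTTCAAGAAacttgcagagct
HSFA2 (chr2:11135524-11135560, plus strand): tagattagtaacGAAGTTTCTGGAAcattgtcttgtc
HSFA7A (chr3:19264987-19265023, plus strand): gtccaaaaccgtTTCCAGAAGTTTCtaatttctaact
HSFA7B (chr3:23399067-23399103, plus strand): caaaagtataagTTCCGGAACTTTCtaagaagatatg
DREB2A (chr5:1602029-1602065, plus strand): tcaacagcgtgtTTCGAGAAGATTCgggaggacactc
GOLS1 (chr2:19370554-19370590, minus strand): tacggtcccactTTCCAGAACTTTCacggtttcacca
The elements begin at base -53 in HSP17.6C-CI, -44 in HSP17.4-CI, -88 in HSFA2, -142 in HSFA7A, -157 in HSFA7B, -164 in DREB2A and -100 in GOLS1, counted from the start. HSP17.4-CI and HSFA7A each hold another one, at -125 and -192.

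The element was found in 95 of 22547 promoters, 0.421% of all genes tested. Among genes lower by at least 64-fold in heat libraries labelled eTK, 8 of 191 promoters held it (4.19%). The share was 6 of 311 (1.93%) for genes lower by 8-fold to 64-fold and 14 of 1323 (1.06%) for those lower by 2-fold to 8-fold. It was 4 of 2186 (0.183%) among genes higher by at least 2-fold. Among genes lower by at least 8-fold, it stood in 14 of 349 promoters where the interaction was also lower (4.01%) and in 0 of 147 where the interaction was not called. Only 2 of 19 small heat shock protein promoters and 0 of 21 promoters of the HSP70, HSP90 and HSP100 list held these exact letters in this window. Matches are a description of the sequence, and their absence from the window says nothing of the factor.

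**Figure D5:**
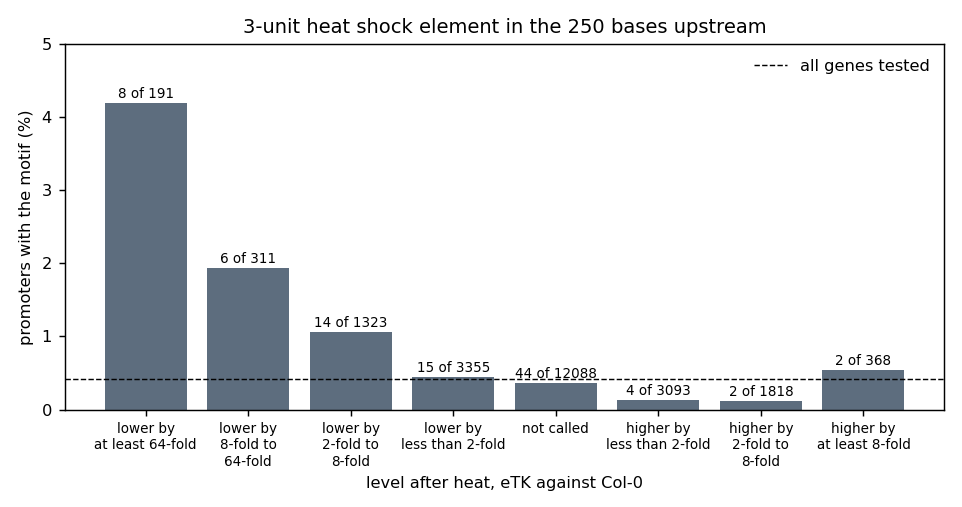
Share of promoters (%) with a perfect 3-unit heat shock element in the 250 bases upstream of the start, by how the level after heat in libraries labelled eTK compared with Col-0, with the number of promoters above each bar and the share over all genes tested (0.421%) as a dashed line. The bar of genes lower by at least 64-fold stands at 4.19% and that of genes not called at 0.364%.

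Among the 21 heat shock factors, 12 were lower and 4 higher in heat libraries labelled eTK, with a median of -1.26. HSFA2 (AT2G26150, chr2:11135624-11137792), the inducible factor that prolongs the response, had 9.95, 10.3 and 7.83 CPM in libraries labelled eTK, against 9615, 9113 and 10297 CPM in Col-0 (log2 -10.01 ± 0.4, adjusted p = 5.46e-13). In control HSFA2 averaged 0.271 CPM in libraries labelled eTK and 1.04 CPM in Col-0. HSFA7B had 0.329, 0.158 and 0.242 CPM in libraries labelled eTK, against 891, 830 and 868 CPM in Col-0 (log2 -11.79 ± 0.31). Its element is printed above; HSFA7A, with a pair of elements, averaged 6.92 CPM in libraries labelled eTK and 1609 CPM in Col-0 (log2 -7.86). Of 5 class B factors, which repress transcription, 3 were lower: HSFB1 averaged 44.9 CPM in libraries labelled eTK and 1962 CPM in Col-0 (log2 -5.45), and HSFB2A and HSFB2B were lower by 5.04 and 3.83 on the log2 scale. HSFB3 and HSFB4 were not called (log2 1 and -0.26). HSFA3, a target of DREB2A, was lower by 1.61.

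Other heat shock factors were higher. HSFA6B, a class A factor that acts in ABA signalling, had 78.5, 74.4 and 63.3 CPM in libraries labelled eTK, against 6.1, 10.8 and 9.08 CPM in Col-0 (log2 3.06 ± 0.21, adjusted p = 9.22e-10). HSFC1 had 36.7, 39.2 and 35.2 CPM in libraries labelled eTK, against 9.1, 11.5 and 11.7 CPM in Col-0 (log2 1.78 ± 0.13). All libraries labelled eTK exceeded all Col-0 libraries in both genes, and HSFA6B had the highest level per kilobase of the class in libraries labelled eTK (45.7 CPM per kb). HSFA8 and HSFA5 were higher by 0.57 and 0.53.

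Of 16 other heat-responsive regulators, 6 were lower and 6 higher (median -0.06; 10 higher and 4 lower by library size alone). MBF1C, a coactivator needed for basal thermotolerance, averaged 22.3 CPM in libraries labelled eTK and 7884 CPM in Col-0 (log2 -8.47). DREB2A, an AP2-type activator of heat and drought genes, had 33.5, 36.5 and 33.6 CPM in libraries labelled eTK, against 2181, 2023 and 2295 CPM in Col-0 (log2 -5.97 ± 0.28, adjusted p = 4.39e-12). Its control means were 3.22 CPM in libraries labelled eTK and 5.89 CPM in Col-0. DREB2B and DREB2C were lower by 3.25 and 2.43 on the log2 scale. The cold-acclimation factors CBF1, CBF2 and CBF3 were higher by 3.71, 1.73 and 2.82, at means of at most 11.8 CPM in libraries labelled eTK and 3.55 CPM in Col-0. The NAC factor NAC019 was higher by 2.97, and like the CBF genes it was not called in the interaction.

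Genes of protein folding in the endoplasmic reticulum stood the other way. Of 30 members, 18 were higher and 7 lower in heat libraries labelled eTK, with a median of 0.58, and their share of all counts was 1.64, 1.73 and 1.71% in libraries labelled eTK, against 0.59, 0.676 and 0.651% in Col-0 (two-sided exact permutation p = 0.1, the smallest possible). In control the shares averaged 0.238% in libraries labelled eTK and 0.262% in Col-0. Heat libraries of both lines thus lay above control, and those labelled eTK lay highest. The interaction was called higher for 16 members and lower for 4, against 2848 higher and 2859 lower over all 22696 genes tested.

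By absolute level the luminal chaperones led this group. The largest log2 rises, 2.85 for SAR1A and 2.59 for BIP3, stood at low levels. SAR1A averaged 1.43 CPM in libraries labelled eTK and 0.202 CPM in Col-0, and BIP3 2.08 and 0.354 CPM in the same order. BIP2, an HSP70 of the lumen, had 5032, 5219 and 5174 CPM in libraries labelled eTK, against 1435, 1591 and 1568 CPM in Col-0 (log2 1.75 ± 0.11, adjusted p = 2.6e-10). HSP90.7, the HSP90 of the lumen, had 3072, 3318 and 3292 CPM in libraries labelled eTK, against 850, 874 and 878 CPM in Col-0 (log2 1.9 ± 0.097, adjusted p = 1.05e-11). CRT1B, a lectin chaperone of the calreticulin type, had 1144, 1193 and 1163 CPM in libraries labelled eTK, against 248, 278 and 242 CPM in Col-0 (log2 2.19 ± 0.11, adjusted p = 7.71e-12). No Col-0 library reached the lowest library labelled eTK in these 3 genes. BIP1 went the other way, at 2179, 2290 and 2265 CPM in libraries labelled eTK, against 2821, 3136 and 3002 CPM in Col-0 (log2 -0.41 ± 0.097, adjusted p = 0.00204). BIP1 and BIP2 are near-identical, so the split between them is uncertain; their sum was 7387 ± 156 CPM in libraries labelled eTK and 4517 ± 240 CPM in Col-0 (SD, n = 3 each), a ratio of 1.64. The lectin chaperones CNX1 and CRT1A were higher by 1.53 and 1.58, the disulfide isomerases PDI9 and PDI6 by 1.23 and 1.06, and the J-domain protein ERDJ3B by 1.08.

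Members of the same compartment that fell below Col-0 were among those with the sharpest contrast. ERDJ3A, a J-domain partner of BiP, had 25, 26.4 and 28.5 CPM in libraries labelled eTK, against 901, 1110 and 1318 CPM in Col-0 (log2 -5.38 ± 0.22, adjusted p = 4.45e-13). DERLIN-1, a membrane protein of the degradation pathway, had 40.2, 41.4 and 41.1 CPM in libraries labelled eTK, against 467, 558 and 605 CPM in Col-0 (log2 -3.73 ± 0.11, adjusted p = 3.05e-15). BZIP28, a membrane-bound transcription factor of the unfolded protein response, averaged 32.4 CPM in libraries labelled eTK and 191 CPM in Col-0 (log2 -2.56 ± 0.1), and the related BZIP17 was lower by 0.91. BZIP60, activated by the splicing enzyme IRE1, was higher by 0.51 ± 0.17 (adjusted p = 0.0188), while IRE1A and IRE1B were not called (log2 0.1 and 0.11).

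Promoters of this group were searched for the endoplasmic reticulum stress element, CCAAT followed after any 9 bases by CCACG, and for the core ACGTG, on both strands; a match of the element may hold the core. The element occurred in 3 of 30 promoters of the list (10%) and in 83 of all promoters (0.368%). It occurred in 8 of 2186 promoters of genes higher by at least 2-fold (0.366%) and in 9 of 1825 promoters of genes lower by at least 2-fold (0.493%). The core was in 17 of 30 promoters of the list (56.7%), against 24.2% of all promoters. The 3 elements are printed as the letters behind that count, with capitals for the element and TAIR10.1 positions.
PDI6 (chr1:29126572-29126614, plus strand): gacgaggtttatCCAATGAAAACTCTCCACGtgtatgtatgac
HSP90.7 (chr4:12556059-12556092, minus strand): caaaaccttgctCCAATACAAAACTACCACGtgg
P58IPK (chr5:750030-750072, plus strand): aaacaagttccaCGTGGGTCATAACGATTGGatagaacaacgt
HSP90.7 and PDI6 were higher in heat libraries labelled eTK, and P58IPK, a J-domain protein of the lumen, was not called (114 CPM in libraries labelled eTK, 105 CPM in Col-0).

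Some other protective genes of heat stress were low in libraries labelled eTK. GOLS1, which makes the galactinol from which raffinose is built, had 3.08, 2.83 and 2.81 CPM in libraries labelled eTK, against 4252, 4866 and 5209 CPM in Col-0 (log2 -10.68 ± 0.36, adjusted p = 2.52e-14). APX2, a cytosolic ascorbate peroxidase, had 0.824, 0.665 and 0.619 CPM in libraries labelled eTK, against 491, 568 and 510 CPM in Col-0 (log2 -9.54 ± 0.26, adjusted p = 1.18e-15). The lines were separated by more than 2 orders of magnitude in each gene. GOLS2 was lower by 5.35 after heat although it was higher in control by 1.35. Of 7 galactinol and raffinose genes 3 were lower and 1 higher (2 lower and 3 higher by library size alone; 0 higher without any of 5 of the 6 heat libraries), and of 15 oxidative stress enzymes 6 were lower and 2 higher; the higher pair was the copper-zinc superoxide dismutases CSD1 (log2 1.21) and CSD2 (0.87). By library size alone 9 of the oxidative stress enzymes were higher and 2 lower. Among 38 glutathione S-transferases tested, 10 were lower and 9 higher, shares near those over all genes tested (6 lower and 20 higher by library size alone; 5 higher without the first eTK heat library). GSTU5, one of those lower, averaged 129 CPM in libraries labelled eTK and 2686 CPM in Col-0 (log2 -4.38 ± 0.13).

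Early stress regulators were mixed. The zinc-finger repressors ZAT6 (log2 -3.98), ZAT12 (-3.83) and ZAT10 (-2.21) were lower in heat libraries labelled eTK, with ZAT12 at 12.3, 13.1 and 11.6 CPM there, against 171, 162 and 192 CPM in Col-0. The ethylene response factor ERF104 was higher, at 210, 233 and 234 CPM in libraries labelled eTK, against 41.4, 46 and 54.9 CPM in Col-0 (log2 2.25 ± 0.18, adjusted p = 7.83e-09). RAP2.6 and ERF4, of the same family, were higher by 1.74 and 1.31. In the whole list of 23 genes 8 were lower and 6 higher, against 5 lower and 12 higher by library size alone.

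WRKY factors, which act in defence and senescence, had 19 members higher and 10 lower among 61 tested (median 0.21), whereas in control 1 was higher and 26 were lower (median -0.46). Over all genes tested, the measure for each list of this paragraph, 23.3% were higher and 23.1% lower after heat. The interaction was called higher for 21 WRKY genes and lower for none by edgeR, with 1 lower at an unadjusted p below 0.05 and 1 called lower by DESeq2. Over all 22696 genes tested the interaction was called higher for 2848 and lower for 2859. WRKY17 had 32.4, 34.3 and 32.6 CPM in heat libraries labelled eTK, against 7.02, 7.58 and 8.08 CPM in Col-0 (log2 2.13 ± 0.14), while it was lower in control by 0.48 (log2 -0.48). Its close relative WRKY11 was higher after heat by 1.74. WRKY41 was lower in both, with 2 counts in heat libraries labelled eTK and 136 in Col-0 (ratio of Col-0 over eTK 104, counting interval 28.2 to 866). Of 13 defence genes 2 were higher and 3 lower (5 higher and 1 lower by library size alone; 1 lower without the first or the second eTK, or the third Col-0, heat library): the camalexin enzyme gene PAD3 (log2 2.24) and the salicylate regulator SARD1 (1.51) were the higher pair. Of 11 JAZ repressors of jasmonate signalling tested, 6 were higher and 2 lower, with JAZ3 at 1.45 and JAZ10 at -2.52.

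ABA response genes were largely higher in libraries labelled eTK with and without heat. After heat 15 of 22 were higher and 3 lower (median 0.95), and in control 19 were higher and none lower by edgeR (median 0.81; 1 lower at an unadjusted p below 0.05, none by DESeq2). RD29B, a drought and salt marker, averaged 16.9 CPM in heat libraries labelled eTK, against 1.14, 1.08 and 0.686 CPM in Col-0, all lower (log2 4.12 ± 0.42, adjusted p = 3.32e-07). Its control difference was 3.6 and the interaction was not called (log2 0.52, adjusted p = 0.488). HAI1, a phosphatase that damps ABA signalling, had 38.3, 36.7 and 28.7 CPM in heat libraries labelled eTK, against 3.13, 4.56 and 2.06 CPM in Col-0 (log2 3.41 ± 0.26), and its interaction was called (1.41). Neither gene overlapped between the lines. COR15A and RAB18, both late-embryogenesis-type protectants, were higher by 4.68 and 3.67. The dehydrins COR47 and ERD10 and the related KIN1 were lower after heat by 1.14, 0.84 and 2.3 although each was higher in control. NCED3, the key gene of ABA synthesis, was higher in control by 1.91 and not called after heat (log2 0.34, adjusted p = 0.162).

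In 2 lists tied to growth more members were higher than lower in libraries labelled eTK, where 23.3% of all genes tested were higher and 23.1% lower. Among 47 cell wall loosening genes tested 16 were higher and 6 lower (median 0.3; 3 lower without the first eTK heat library). By library size alone 32 of them were higher and 1 lower, against 15271 and 1668 over all genes tested. XTH16, a xyloglucan endotransglucosylase, had 179, 187 and 167 CPM in heat libraries labelled eTK, against 28.5, 29 and 34.5 CPM in Col-0 (log2 2.53 ± 0.1, adjusted p = 2.21e-13). XTH33, of the same family, averaged 19.1 CPM in libraries labelled eTK and 1.31 CPM in Col-0 (log2 3.87 ± 0.31). Both genes showed no overlap. Of 12 thermomorphogenesis genes, which drive elongation in warmth, 6 were higher and 2 lower (median 0.5), against 10 higher and 0 lower by library size alone. ATHB2, a homeodomain factor of shade elongation, had 18.1, 22.2 and 18.1 CPM in libraries labelled eTK, against 5, 4.76 and 4.75 CPM in Col-0 (log2 2.01 ± 0.15). The auxin genes IAA29, IAA19 and YUC8 were higher by 3.02, 1.61 and 1.31, and the bHLH factors PIF4 and PIF5 by 0.83 and 0.92, whereas PIF3 and HY5 were lower by 1.05 and 0.77.

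Photosynthesis and clock genes were mixed. Light harvesting and Rubisco genes had 8 of 22 higher and 3 lower after heat (median 0.13), against 14 higher and 3 lower in control. Their share of counts averaged 4.95 ± 0.1% in heat libraries labelled eTK and 3.27 ± 0.37% in Col-0 (SD, n = 3 each). That share is of all counts, without the TMM factors, and the heat shock transcripts of Col-0 add to the total there. The share alone thus does not show higher levels in libraries labelled eTK. LHCB2.3, an antenna protein of photosystem II, had 40.3, 43.6 and 48.4 CPM in heat libraries labelled eTK, against 14.5, 9.88 and 10.6 CPM in Col-0 (log2 1.91 ± 0.21; control 1.86). Clock genes had 2 of 14 higher and 5 lower, but 8 higher and 4 lower by library size alone. LNK1, a coactivator of evening genes, averaged 14.7 CPM in libraries labelled eTK, against 171, 209 and 223 CPM in Col-0 (log2 -3.77 ± 0.16, adjusted p = 6.37e-13). PRR7, a morning repressor, had 43.8, 34.8 and 35.6 CPM in libraries labelled eTK, against 168, 211 and 250 CPM in Col-0 (log2 -2.46 ± 0.18), with a control difference of 0.75. The PRR7 promoter also holds a 3-unit heat shock element, at base -78. Controls of PRR7 split by batch: 220, 182 and 164 CPM in batch 1 and 4.82, 4.78 and 4.59 CPM in batch 2 in libraries labelled eTK. In Col-0 they were 92.7, 103 and 91.1 CPM, then 3.56, 2.69 and 4.02 CPM. LNK1 and LHCB2.3 were also lower in batch 2 controls of both lines.

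The splicing factor SR45A, an alternative splicing regulator, stood apart in its list: it averaged 22.6 CPM in heat libraries labelled eTK and 2061 CPM in Col-0 (log2 -6.51 ± 0.15, adjusted p = 8.93e-17). SR30 and SCL33 were lower by 2.39 and 1.84, and in all 5 of 19 splicing factors were lower and 1 higher (0 higher without the second eTK or the first or second Col-0 heat library), against 5 lower and 13 higher by library size alone. Chromatin regulators had 7 of 30 lower and 5 higher (3 lower and 21 higher by library size alone; 8 higher without the first Col-0 heat library). The histone chaperone ASF1B averaged 8 CPM in libraries labelled eTK and 26.7 CPM in Col-0 (log2 -1.74), the ISWI remodeller CHR11 58 and 150 CPM in the same order (log2 -1.37), and the methyltransferase gene ATX1 was lower by 1.19.

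In the lists of ribosomal proteins, proteasome subunits, cell cycle and reference genes the balance turned with the scaling. Cytosolic ribosomal proteins had 9 of 17 lower and 1 higher, with a median of -0.59 (1 lower and 3 higher by library size alone). Proteasome subunits had 9 of 27 lower and none higher (1 lower and 22 higher by library size alone; 1 higher without the first Col-0 heat library). For the proteasome no value reached the 2-fold mark except that of RPT5B, an ATPase subunit (log2 -1.11). Cell cycle genes had 1 of 12 lower and 1 higher (0 lower and 9 higher by library size alone), and the first Col-0 heat library decided both counts (0 lower and 2 higher without it; 0 lower also without the first or the third eTK library). Of 10 reference genes 2 were lower and none higher (1 lower and 7 higher by library size alone): GAPC1, a glycolytic enzyme gene (700 CPM in libraries labelled eTK, 1651 CPM in Col-0, log2 -1.24), and EF1A (log2 -0.41). EF1A overlapped between the lines, lost its call without any of 5 of the 6 heat libraries (log2 -0.46 to -0.22), and turned to 0.23 by library size alone. Genes of the plastid genome had 22 of 74 lower and 2 higher with TMM factors, but 3 and 3 by library size alone, and 11 or 12 lower without the first or the third eTK or the third Col-0 heat library. Their share of counts was 0.0359 ± 0.00507% in heat libraries labelled eTK and 0.0372 ± 0.00559% in Col-0 (SD, n = 3 each; two-sided exact permutation p = 0.7). Mitochondrial genes had 33 of 74 lower and 3 higher, with a median of -1.02 (11 lower and 4 higher by library size alone; 17 lower without the second Col-0 heat library). Some members were nearly absent in 1 line. ATMG01090 had 2 counts in heat libraries labelled eTK and 2353 in Col-0, and ATMG01170 had 4 and 1749 in the same order. ATMG00370 went the other way, with 1452 and 2. Their control counts were 0 and 118, 0 and 218, and 52 and 0 in the same order.

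Markers of cell types were read beside these groups, since whole seedlings were used. Root markers summed to 114 to 122 CPM in heat libraries labelled eTK and 77.2 to 95.1 CPM in Col-0, with 6 of 9 higher, though only 1 to 3 were called when any heat library other than the second Col-0 one was left out. Stomatal lineage markers summed to 45.7 to 48.9 CPM in libraries labelled eTK and 21 to 22 CPM in Col-0, carried by FAMA, a guard cell factor (37, 32.1 and 34.6 CPM in libraries labelled eTK, 5.05, 6.5 and 9.45 CPM in Col-0; log2 2.31 ± 0.23). Of the 6 stomatal markers 2 were higher and 1 lower, SPCH, which starts the lineage (log2 -0.79). Leaf markers summed to 8908 to 10155 CPM in libraries labelled eTK and 11118 to 14955 CPM in Col-0, most of it from RBCS1A, a Rubisco small subunit gene (7828 CPM in libraries labelled eTK, 11402 CPM in Col-0; log2 -0.54). Of the 3 leaf markers RBCS1A was lower and LHCB1.1, a light-harvesting gene, higher (log2 1.49), against 0 lower and 2 higher by library size alone. Fewer cells of a type and less RNA per cell cannot be told apart here, and the part of tissue makeup in the other groups was not tested. Seed and embryo markers summed to 11.7 to 33.5 CPM in libraries labelled eTK and 0.317 to 113 CPM in Col-0, where the second heat library was the highest and the third the lowest, with 1 and 2 of the 8 at 0 in the same order. Of the 7 tested, 4 were higher in libraries labelled eTK after heat and 6 in control, at low levels: EM6, a late-embryogenesis protein, had 6.08, 3.26 and 2.21 CPM in heat libraries labelled eTK, against 0.252, 0.307 and 0.0528 CPM in Col-0 (log2 4.2 ± 0.85, adjusted p = 0.000607). FUS3, an embryo regulator, had 34, 2 and 8 counts in heat libraries labelled eTK and 0 in Col-0.

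Among genes whose heat libraries showed no overlap and whose higher line averaged at least 5 CPM, the 10 largest rises were all called higher in control too. Of all 100 genes higher by at least 64-fold after heat, 71 were. AT1G19550, annotated as a glutathione S-transferase family protein, had 44, 46.5 and 41.7 CPM in heat libraries labelled eTK and no count in Col-0, at least 1827-fold higher when Col-0 is set to the 3-count floor, taken over its libraries together, as for all such bounds; in control it averaged 38.1 and 0.126 CPM in the same order. AT5G27010, an ARM repeat protein, had 5683 counts in heat libraries labelled eTK and 0 in Col-0, at least 1241-fold higher. AT3G60950, with an endonuclease-type domain, had 6535 and 4 counts in the same order, a ratio of 1070 with a counting interval of 418 to 3929. Some falls were alike: AT5G35450, a disease resistance gene of the CC-NBS-LRR class, had 0 counts in heat libraries labelled eTK and 4176 in Col-0, at least 2125-fold lower. These genes separate the lines in every library and at both temperatures.

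Genes called after heat and in the interaction but not called in control were a separate group. FAF4, of the FAF family that limits shoot meristem size, had 7.3, 8.17 and 6.33 CPM in heat libraries labelled eTK, against 0.252, 0.154 and 0.0528 CPM in Col-0 (log2 5.5 ± 0.39, adjusted p = 1.37e-09). In control it averaged 1.4 CPM in libraries labelled eTK and 0.994 CPM in Col-0. The F-box gene AT5G10340 (log2 4.72), the MIZU-KUSSEI-like gene AT2G22460 (4.68), the uncharacterized gene AT2G18210 (3.8) and the integrase-type DNA-binding gene AT1G77640 (3.76) followed. On the lower side this group held small heat shock proteins (HSP23.6, HSP21, HSP26.5 and HSP18.2) and the RNA-binding protein gene AT5G53680, with 4 counts in libraries labelled eTK and 12440 in Col-0. HSP23.6 narrowly missed the control call (log2 -2.9, adjusted p = 0.0559 by edgeR). Its control counts were 5 in libraries labelled eTK and 43 in Col-0, so a lack of a call does not show equal levels.

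Of the 180 genes lower after heat and higher in control, 3 are given here beside HSP70-5 and HSFA7B. AT5G05220, uncharacterized, had 0.494, 0.728 and 0.483 CPM in heat libraries labelled eTK, against 32.2, 41.3 and 29.5 CPM in Col-0 (log2 -5.91 ± 0.25), while in control it averaged 0.0621 CPM in libraries labelled eTK and had no count in Col-0. AT5G07330, annotated as NFU1 iron-sulfur cluster protein, averaged 0.993 CPM in heat libraries labelled eTK and 119 CPM in Col-0 (log2 -6.91), against 0.508 and 0.11 CPM in control in the same order (log2 2.11). AT3G59730, a lectin-type receptor kinase gene, averaged 0.396 and 46.2 CPM in the same order after heat (log2 -6.86) and 1.23 and 0.697 CPM in control (0.82). Their control levels were low in both lines, near or below 1 CPM.

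By absolute level, genes chosen after their values were seen, the largest excess in heat libraries labelled eTK after the luminal chaperones and antenna proteins belonged to GTE7, a bromodomain protein. GTE7 averaged 952 CPM in libraries labelled eTK and 187 CPM in Col-0 (log2 2.35). ERD15, an early dehydration-response gene, averaged 1242 and 638 CPM in the same order (log2 0.96), and MYBR1, an R2R3 MYB factor, 929 and 368 CPM (log2 1.34). All libraries labelled eTK exceeded all Col-0 libraries in GTE7 and MYBR1.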

How the data were processed

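Per the labels' protocols, whole seedlings gave total RNA (RNeasy kit), which was sequenced by NovaSeq. The authors deposited raw read counts per gene for 27655 genes in 18 Arabidopsis libraries. Tools named in the submitters' processing notes are STAR 2.7.9a, Subread 2.0.6 with featureCounts, and fastp 0.24.0. The genome build, annotation, strand setting and handling of multiply mapped reads are not given in the sources used here, so near-identical copies and antisense partners are uncertain. Even numbers made up 75.4 to 83.3% of the counts above 0 in each library, so mates appear to have been counted singly, and counting intervals may be too narrow; intervals and floors cover counting error only.

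From these counts edgeR 4.0.16 (R 4.3.3) was run with filterByExpr, TMM factors and a robust quasi-likelihood fit of all 18 libraries, with a term per group and one for batch (common dispersion 0.0244). Calls used a Benjamini-Hochberg adjusted p below 0.05. The SE is the log2 difference divided by the root of the F statistic and may be too small where a group has almost no counts. Heat libraries of 1 group differed from each other beyond sampling noise by chi-square, so none was counted as a repeat. Shares used exact permutation tests. Counting intervals are exact, at 95%. The fit was tested on simulated data that held no composition shift of the kind seen here, so that test does not cover the scaling. Alternatives were DESeq2 1.42.0, other scalings, no filter, subsets of libraries, halved counts and a replicate block.

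The comparison, the 32 gene lists and the rule for 108 named genes were chosen with earlier results of these data known. Named are the HSFA1 genes, the 10 largest rises and falls without overlap of libraries and with at least 5 CPM in the higher group, the largest members of each list, the largest CPM differences, the largest heat-dependent differences and those of opposite sign; other list members were named as examples after their values were seen. Gene positions, products, exon lengths and promoters come from RefSeq TAIR10.1, to which 27445 nuclear identifiers matched; another 88 were plastid and 122 mitochondrial.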

Additional observations from a re-analysis of the deposited data

Results flagged for a closer look

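The difference between the lines after heat departed from that in control for 5707 genes by the interaction test of edgeR, and for 4445 with batch 1 alone. The lines were called in opposite directions with and without heat for 221 of the genes higher after heat and 180 of those lower. For 5 of the 180 the interaction was -12.15 for HSP70-5, -13.42 for HSFA7B, -11.15 for AT5G05220, -9.02 for AT5G07330 and -7.69 for AT3G59730 on the log2 scale.

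In 28 groups of control values, which were library shares and HSFA1 gene levels, 3 shares stood apart from the rest of their group, in 2 control libraries. Chance alone sets apart about 1 group in 20. The Col-0 control library 6 had the lowest share of ER protein folding counts, 0.228%, against a group mean of 0.262%. The control library labelled eTK 5 had the highest share of plastid counts, 0.105%, and of mitochondrial counts, 0.00738%, against means of 0.0554% and 0.00513%. Only control groups were put to this check, so it says nothing of the heat libraries.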

How the results depend on the processing

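The scaling moved the counts most. By library size alone 16939 genes were called, 15271 higher and 1668 lower in libraries labelled eTK, and 6913 by at least 2-fold, 5859 higher and 1054 lower; the interaction then called 15347. Scaling by totals outside the heat shock lists gave 9774 higher and 2714 lower (3350 higher by at least 2-fold), and scaling by reference genes gave 8900 higher and 2881 lower. By library size alone PCNA1 (0.15), RBCS1A (0.09) and EF1A (0.23) turned positive and were not called. The replicate numbers of the heat libraries did not pair them: deviations of same-numbered libraries correlated at -0.471, -0.006 and -0.188. A replicate block called 10020 genes in all 18 libraries and 6319 in the 6 heat libraries (3051 higher, 3268 lower), where fewer degrees of freedom remain; without the block those 6 gave 8458. DESeq2 called 11100 and halved counts 10236. Leaving out a heat library called 9027 to 10118. Of the named genes' values under all alternatives, 1776 kept direction and call, 47 lost the call, 1 gained it and 3 turned. Under each scaling, 17 of 19 small heat shock proteins and 19 or 20 of 21 HSP70, HSP90 and HSP100 genes were lower, whereas small differences depend on it.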

Other observations

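Genes that differed by at least 8-fold in the same direction with and without heat were unevenly placed on the chromosomes; the intervals below were chosen after the values were seen and carry no test. Over all nuclear genes tested they were 258 of 22548 (1.14%). Between 6 and 10 Mb of chromosome 4, which holds HSFA1A, they were 39 of 808 (4.83%), and between 4 and 16 Mb of chromosome 5, which holds HSFA1B, 64 of 1677 (3.82%). The shares did not peak at these genes. On chromosome 4 they were 4.35% at 4 to 6 Mb, 6.27% at 6 to 8 Mb and 3.63% at 8 to 10 Mb, the window of HSFA1A. On chromosome 5 the window of HSFA1B, 4 to 6 Mb, had 2.37%. The windows at 10 to 12, 12 to 14 and 14 to 16 Mb had 15.1, 8.2 and 7.6%. Between 10 and 14 Mb of chromosome 1, which holds HSFA1D, there was 1 of 540 (0.185%). Outside the chromosome 4 and 5 intervals they were 155 of 20063 (0.773%).

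Mitochondrial transcripts took a larger share of counts in the heat libraries of both lines than in control: 0.0592 ± 0.00694% in heat libraries labelled eTK and 0.0757 ± 0.016% in Col-0 heat libraries (SD, n = 3 each), against control means of 0.00513% in libraries labelled eTK and 0.00569% in Col-0. Between the heat libraries of the lines the two-sided exact permutation p was 0.2, where the smallest that 3 libraries against 3 allow is 0.1.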
